A study of Mus musculus with 15 samples.

Results

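The CC chemokine genes Ccl2, Ccl3, Ccl4, Ccl5, Ccl7, Ccl9, Ccl17, Ccl20 and Ccl22 were selected by name, and each had 1 promoter among the 25881 annotated mouse promoters. All 9 had a coverage score above 100, as had 13559 promoters in all. The study sets its cut-off on mean coverage in non-stimulated DC and fibroblast data, at a level equal to 100 fragments within 1000 bp of the transcription start site (TSS). The scores of the 9 ran from 105.5 (Ccl3) and 115 (Ccl20), just above that limit, to 554.25 (Ccl9), with a median of 201 over all 13559 promoters. Nucleosome occupancy had been measured in 15 libraries by ChIP-MNase, in which an antibody first recovers large cross-linked pieces of chromatin, and micrococcal nuclease (MNase) then cuts between their nucleosomes. Antibodies against H3K4me1, a histone mark of promoters and enhancers, were used for DCs, non-stimulated or treated for 1 h with LPS at 100 ng/ml, and for 3T3 fibroblasts, non-stimulated or treated for 1 h with TNF-α at 5 ng/ml. Each of these 4 conditions was deposited as 1 set in which 2 replicates had been pooled, so it carries no replicate error. The DCs were grown from mouse bone marrow progenitor lines, and 3T3 is an immortalised fibroblast line. Further single H3K4me1 libraries came from control fibroblasts and from fibroblasts with a Brg1/Brm knock-down, non-stimulated or after the same TNF-α treatment, with 2 replicates of each. Brg1 and Brm are the alternative ATPases of the BAF chromatin remodelling complex, and both were lowered with 1 stably expressed hairpin RNA in transduced, sorted cells. The study measured both transcripts by quantitative RT-PCR and reports them as reduced. Occupancies do not measure that loss, so the knockdown itself could not be checked in these libraries. Lastly, fibroblasts treated with TNF-α gave 2 libraries with an antibody against RNA polymerase II phosphorylated at serine 7 (pol-II S7P) and 1 set against the serine 5 form (pol-II S5P), counted here as a library although the study lists 2 replicates and the set may hold both.

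CC chemokines are small secreted proteins that draw leukocytes towards them through G-protein-coupled receptors. DCs and fibroblasts release several of them when they sense bacteria or TNF-α, and NF-κB and AP-1 are known activators of many of these genes. Promoters in use commonly carry a nucleosome-depleted region (NDR) just upstream of the TSS, followed by a positioned +1 nucleosome. The NDR was measured here as the NDR ratio, which sets the mean occupancy of the window from −150 to 0 bp over that of the flank between −1000 and −500 bp. In it a value of 1 means no depletion and a value below 0.5 was counted as depleted. Patterning is the sum over the 200 bins of 10 bp of occupancy, as its difference from the promoter's mean, times the centred mean profile of active promoters, so that a high level means a profile like theirs and a negative level its inverse.

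The genes lie in 4 places of the mm9 genome. Ccl2 and Ccl7, which both attract monocytes, start 10135 bp apart on chromosome 11. Ccl5, Ccl9, Ccl3 and Ccl4 follow on the same chromosome, with 48118, 70742 and 13207 bp between neighbouring starts. Ccl22 and Ccl17, the ligands of the receptor Ccr4 of helper and regulatory T cells, start 64769 bp apart on chromosome 8, and Ccl20, the ligand of Ccr6, starts at position 83113342 of chromosome 1. A GENCODE start lay within 23 bp of each annotated TSS. None of the 9 promoters was a CpG island (more than 50% G and C, with CpG at more than 0.6 of its expected frequency, around the TSS), compared with 48.2% of the 25738 promoters with sequence. Among those with a coverage score above 100 the share was 56.1%. The CpG ratios of the 9 were 0.0882 to 0.26.

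The 200 bases upstream of the TSS are shown for the promoters that the following results describe most, together with Ccl9, which had the highest coverage. They are taken from mm9 and written 5′ to 3′ on the strand of the gene. Capitals mark matches on either strand to TATAAA, to a strict NF-κB-like motif (GGG, any 3 bases, TTCC), to a loose one that contains it (GGG, any 5 bases, CC), to TGANTCA (AP-1-like) and to CCAAT.
Ccl2 (chr11:81848880-81849079, plus strand): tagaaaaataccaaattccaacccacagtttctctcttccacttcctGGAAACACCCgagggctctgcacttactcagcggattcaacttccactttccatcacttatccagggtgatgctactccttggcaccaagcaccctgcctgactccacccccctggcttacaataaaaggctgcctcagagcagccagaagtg
Ccl7 (chr11:81859015-81859214, plus strand): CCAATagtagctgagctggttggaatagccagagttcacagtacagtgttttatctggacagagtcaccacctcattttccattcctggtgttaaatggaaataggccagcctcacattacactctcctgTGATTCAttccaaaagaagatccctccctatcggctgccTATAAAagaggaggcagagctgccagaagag
Ccl5 (chr11:83344021-83344220, minus strand): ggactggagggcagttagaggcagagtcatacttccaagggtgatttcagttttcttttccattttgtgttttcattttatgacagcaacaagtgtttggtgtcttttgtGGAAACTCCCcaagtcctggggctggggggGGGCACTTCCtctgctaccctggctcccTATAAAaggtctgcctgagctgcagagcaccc
Ccl9 (chr11:83392139-83392338, minus strand): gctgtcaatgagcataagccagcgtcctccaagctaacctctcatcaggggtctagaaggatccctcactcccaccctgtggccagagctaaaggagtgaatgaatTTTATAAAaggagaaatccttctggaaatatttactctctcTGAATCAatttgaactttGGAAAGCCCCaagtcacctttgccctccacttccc
Ccl20 (chr1:83113142-83113341, plus strand): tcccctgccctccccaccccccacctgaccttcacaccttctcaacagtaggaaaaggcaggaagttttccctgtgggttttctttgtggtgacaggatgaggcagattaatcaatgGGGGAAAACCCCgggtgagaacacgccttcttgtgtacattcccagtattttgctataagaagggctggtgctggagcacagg

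Between 250 bp upstream and 50 bp downstream of the TSS, TATAAA was found in 4 of the 9 promoters and in 12.7% of all promoters. It begins 31 bp upstream of the TSS in Ccl7, 32 bp in Ccl5 and 28 bp in Ccl4, whereas the copies in Ccl9 begin 92, 94 and 224 bp upstream. The strict NF-κB-like motif was also found in 4 (Ccl2, Ccl5, Ccl9 and Ccl20) and in 5.47% of all promoters, with 2 copies in Ccl5. The loose one was found in 5 of the 9, Ccl22 being the fifth, and in 56.2% of all promoters. TGANTCA was found in Ccl7 and Ccl9 (7.08% of all promoters), CCAAT only in Ccl7 (37.8%) and the interferon-type GAAA, any 2 bases, GAAA in none (3.46%). Among promoters with a coverage score above 100 these shares were 9.71%, 6.11%, 62.1%, 6.45%, 37.4% and 3.6%, in the order given. In these letters Ccl3 and Ccl17 had no match. A match describes the sequence and is not a measured binding site.

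The authors' annotation lists expression in non-stimulated cells from other RNA-seq data, on scales that differ between the cell-types, so each gene is placed within its cell-type. In DCs, 7 of the 9 genes ranked above 97.4% or more of all promoters, with Ccl17 and Ccl5 each above 99.6%, Ccl7 stood above 80.0% and Ccl20 was listed at 0. In fibroblasts Ccl7 and Ccl2 ranked above 95.7% and 94.4%, Ccl9, Ccl17 and Ccl5 above 60.1%, 52.5% and 42.1%, and Ccl3, Ccl4, Ccl22 and Ccl20 were listed at 0. In the same columns all 13 DC markers ranked higher in DCs and all 12 fibroblast markers higher in fibroblasts. Of 4 T and B cell markers 2 were listed at 0 in DCs and 1 in fibroblasts. These ranks describe the RNA-seq data and not the 15 libraries. Occupancies carry no RNA, so the cell-type labels of the libraries could not be checked in this way.

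The occupancies are a signal relative to the surrounding 1 kb and hold no read counts. The coverage score is not the count of any library. If fragments at the level of the score lay evenly, the 150 bp window would hold 7.91 (Ccl3) to 41.6 (Ccl9). By this measure single values at Ccl3, Ccl20 and Ccl22 rest on the fewest. Among the 13559 promoters, the pooled sets filled 82.0 to 90.2% of bins, single H3K4me1 libraries 63.5 to 78.1% and pol-II libraries 69.2 to 81.2%, and the median NDR ratio was 0.59 to 0.736 in the H3K4me1 sets and 0.454 in the S5P library.

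In the pooled sets the depleted CC chemokine promoters were Ccl2, Ccl22, Ccl20 and, in 1 set, Ccl3. In non-stimulated DCs 3 of the 9 (Ccl2, Ccl22 and Ccl20) had an NDR ratio below 0.5, compared with 40.1% of all covered promoters. In DCs treated with LPS 3 of the 8 with a value did (Ccl2, Ccl3 and Ccl22, against 42.8% of all). In non-stimulated fibroblasts none of the 9 did (41.7% of all), and in TNF-α-stimulated fibroblasts Ccl2, Ccl22 and Ccl20 did (45.1% of all). In 3 of the 4 sets the count of 3 is near the share of all covered promoters and is no result about these genes, and the counts describe single pooled sets without a test. Ccl4, Ccl9 and Ccl17 stayed above 0.7 in all 4 sets. Non-stimulated control fibroblasts had depleted members in both single libraries. These were Ccl7, Ccl5 and Ccl20 in the first (34.8% of all covered promoters) and Ccl7 and Ccl20 in the second (44.5%).

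**Figure D1:**
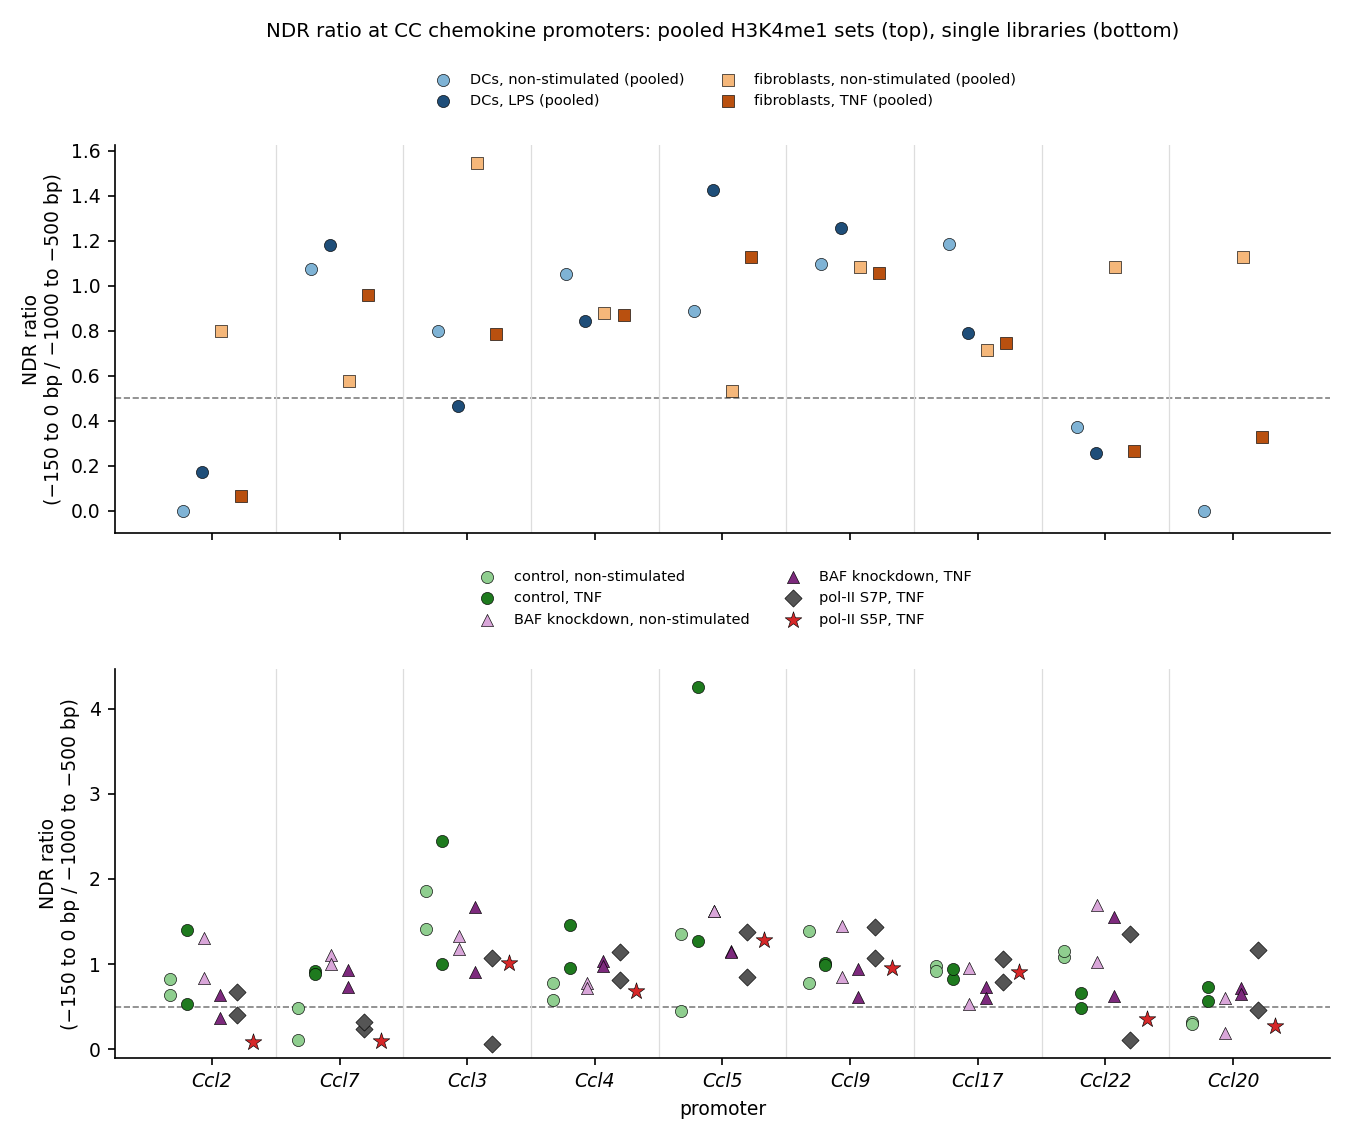
NDR ratio (y axis, linear) of the 9 CC chemokine promoters (x axis) in the 4 pooled H3K4me1 sets (top) and the 11 single libraries (bottom), 1 point per library, with the dashed line at 0.5. Ccl2 lies below 0.2 in 3 of the 4 pooled sets, Ccl7 lies below the line in the 3 pol-II libraries and in both non-stimulated control libraries, and Ccl4, Ccl9 and Ccl17 lie above it in all 15. Ccl20 has no ratio in DCs treated with LPS, where its flank was empty.

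Ccl2 encodes the main attractant of monocytes through the receptor Ccr2, and of the 9 its patterning level was the highest in each of the 4 pooled sets. Its NDR ratio was 0 in non-stimulated DCs, with no fragment between −150 and 0 bp, 0.173 after LPS, 0.799 in non-stimulated fibroblasts and 0.0661 after TNF-α. The window was thus nearly empty in 3 of the 4 sets and occupied in non-stimulated fibroblasts. The patterning level was 18.2 and 18.8 in DCs without and with LPS, above 87.1% and 87.3% of covered promoters. In pooled fibroblasts it was 10.6 and 21.3 without and with TNF-α, above 65.2% and 87.4%. The single libraries varied more. In control cells the level stood above 88.8% and 67.1% of covered promoters without TNF-α, and above 73.1% and 6.05% with it. In BAF-knockdown cells it stood above 71.9% and 41.4% without TNF-α, and above 70.3% and 77.9% with it. Between 50 and 200 bp downstream of the TSS, the place of the +1 nucleosome, the highest occupancy lay at 105 and 135 bp in DCs. In pooled fibroblasts it lay at 125 and 155 bp. Further peaks lay at 465 to 485 bp and at −455 to −375 bp in the 4 sets, in stretches chosen after the profile was seen. Profiles of the DC sets with and without LPS correlated with r = 0.769 over the 200 bins, against a median of 0.369 for all covered promoters, and non-stimulated DCs and fibroblasts with r = 0.701 against 0.284. Between single replicates r was 0.426 and 0.0891 in control cells without and with TNF-α. In BAF-knockdown cells it was 0.345 and 0.408. The medians of covered promoters were 0.18, 0.154, 0.195 and 0.213 in that order.

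**Figure D2:**
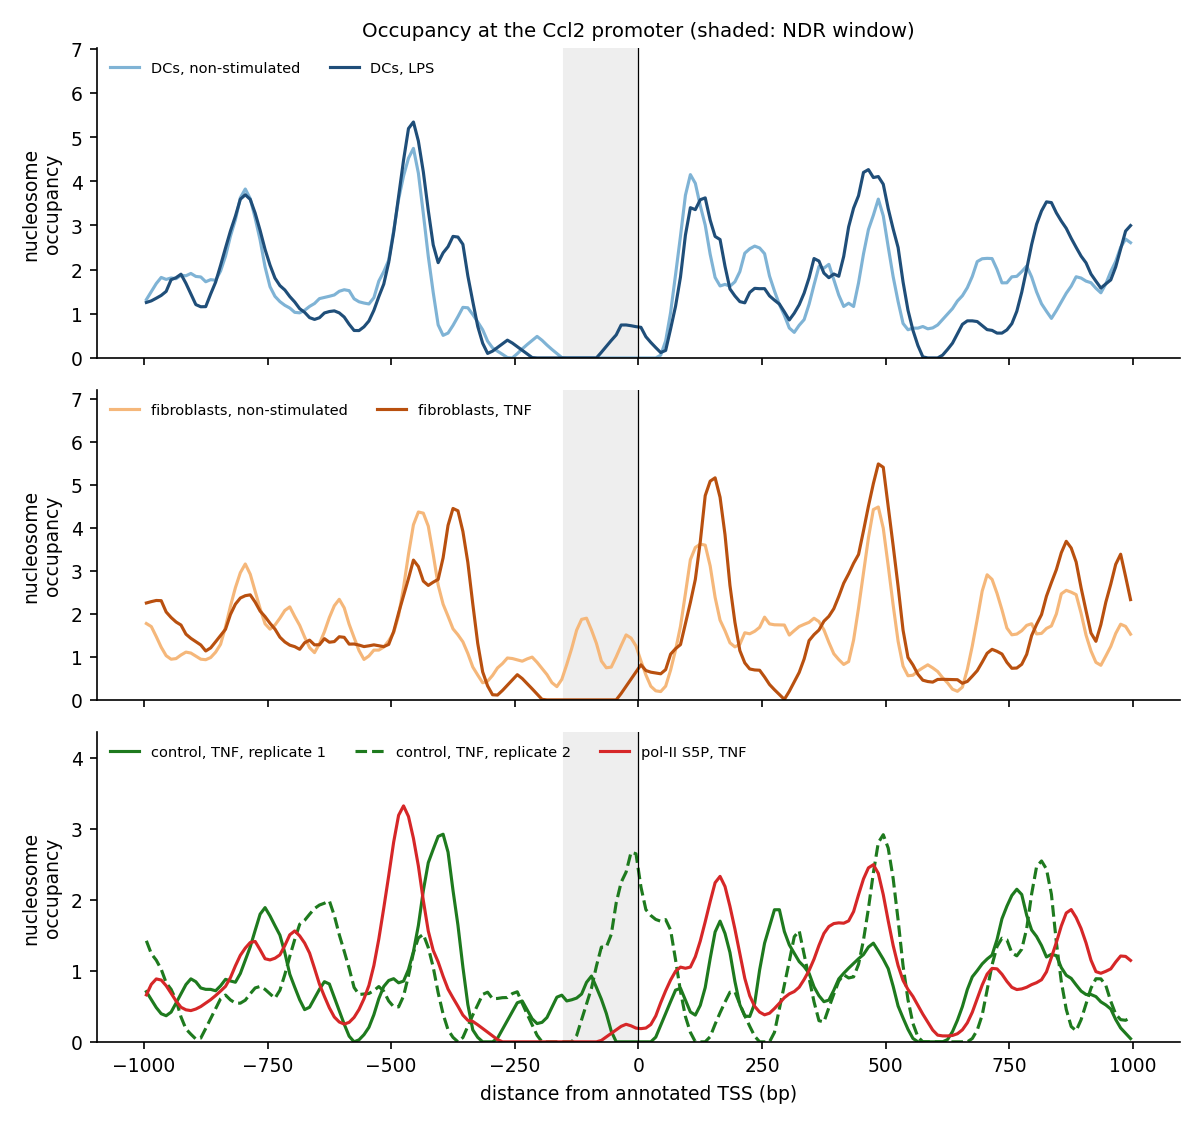
Nucleosome occupancy (y axis, the authors' signal relative to the surrounding 1 kb) at Ccl2 against distance from the TSS (x axis, bp) in DCs (top), pooled fibroblasts (middle) and single libraries of TNF-α-treated fibroblasts (bottom), with the window from −150 to 0 bp shaded. The window is empty or nearly so in both DC sets, in the pooled TNF-α set and in the S5P library, and the 2 control replicates differ within it.

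The study lists the control libraries as controls of the knockdown, apart from the replicates that were pooled. They did not repeat the difference of Ccl2 between pooled fibroblast sets, while the libraries of BAF-knockdown cells differed in the same direction. The NDR ratio was 0.632 and 0.822 in non-stimulated control cells and 0.531 and 1.40 after TNF-α, where the states overlap. In BAF-knockdown cells it was 0.833 and 1.30 without and 0.637 and 0.371 with TNF-α, without overlap. In knockdown cells the TNF-α difference was −0.96 on the log2 scale (SE 0.60, adjusted p = 0.912, limma) and in control cells 0.25 (SE 0.60, adjusted p = 0.993, limma). Neither passed the test, nor did the difference over both kinds of cell, which was −0.36 on the log2 scale (SE 0.43, 95% interval −1.42 to 0.71, adjusted p = 0.941, limma). In the 3 pol-II libraries the ratio was 0.672, 0.407 (S7P) and 0.0915 (S5P). The S5P value was below all 8 single H3K4me1 values, but above the 0.0661 of the pooled H3K4me1 set of TNF-α-treated fibroblasts. S5P is also 1 set, and 52.3% of all covered promoters were depleted in it.

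Ccl7, the neighbour of Ccl2, encodes another monocyte attractant. Its NDR ratio was 1.08 and 1.18 in DCs without and with LPS, and 0.579 and 0.958 in pooled fibroblasts without and with TNF-α. The gene was thus without a depleted window in both DC sets, where its upstream neighbour had an empty or nearly empty one. In the single libraries the ratio was 0.107 and 0.485 in non-stimulated control cells and 0.919 and 0.887 after TNF-α. In BAF-knockdown cells it was 1.11 and 1.00 without and 0.728 and 0.927 with TNF-α. Both non-stimulated control libraries lay below the other 6, which did not fall below 0.7.

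The patterning level of Ccl7 moved with it. It was 8.12 and 4.42 in non-stimulated control cells and 1.67 and 0.876 after TNF-α. In BAF-knockdown cells it was 0.425 and 0.379 without and 0.425 and 0.754 with TNF-α, so that the non-stimulated control libraries were again the 2 that stood apart. The stimulated knockdown libraries exceeded the non-stimulated ones only narrowly, since 0.425 was the lower of the first and the higher of the second. None of these differences passed the test over all promoters. In non-stimulated cells the knockdown difference was 1.79 on the log2 scale of the NDR ratio (SE 0.62, unadjusted p = 0.0307, adjusted p = 0.817, limma), and in control cells the TNF-α difference was 1.59 (SE 0.62, unadjusted p = 0.0466, adjusted p = 0.785, limma). Both rest on the same 2 control libraries. The difference between the TNF-α responses of knockdown and control cells was −1.91 (SE 0.88, 95% interval −4.10 to 0.28, adjusted p = 0.849, limma), −0.86 with a window from −200 to 50 bp and −1.11 without the first non-stimulated control library. Every control library had a higher ratio with TNF-α and every knockdown library a lower one, as 4.96% of covered promoters had in either order. In the file names the first replicate of both knockdown conditions carries another tag than the other 6 libraries. No label says what the tag means, and whatever it marks cannot be told apart from the knockdown in that replicate.

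In the pol-II libraries the NDR ratio of Ccl7 was below 0.5, as in 38.2% and 35.0% (S7P) and 52.3% (S5P) of covered promoters. There the NDR ratio was 0.233 and 0.319 with S7P and 0.0996 with S5P, against 0.919 and 0.887 in H3K4me1 libraries of stimulated control cells and 0.958 in the pooled stimulated set. All 3 pol-II values lay below all 3 H3K4me1 values, which held for 1 of the 9 members and for 4.75% of all covered promoters with a value in each set. This count was made after the values had been seen. The fitted difference of S7P to stimulated control H3K4me1 libraries was −1.44 on the log2 scale (SE 0.61, 95% interval −2.89 to 0.02, adjusted p = 0.561, limma), and with a window from −200 to 50 bp it was −0.25. With that wider window the S7P ratios were 0.642 and 0.549, so that only the S5P set, at 0.0852, was depleted. The +1 peak stood at 145 bp in the S5P library, and at 165 and 195 bp in the S7P libraries. Pol-II libraries were sequenced with paired ends and H3K4me1 libraries with single ends, so antibody and type of sequencing cannot be told apart. The control libraries are controls of the knockdown, which the study lists apart from the pol-II libraries. Any difference between the cells cannot be told apart either.

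**Figure D3:**
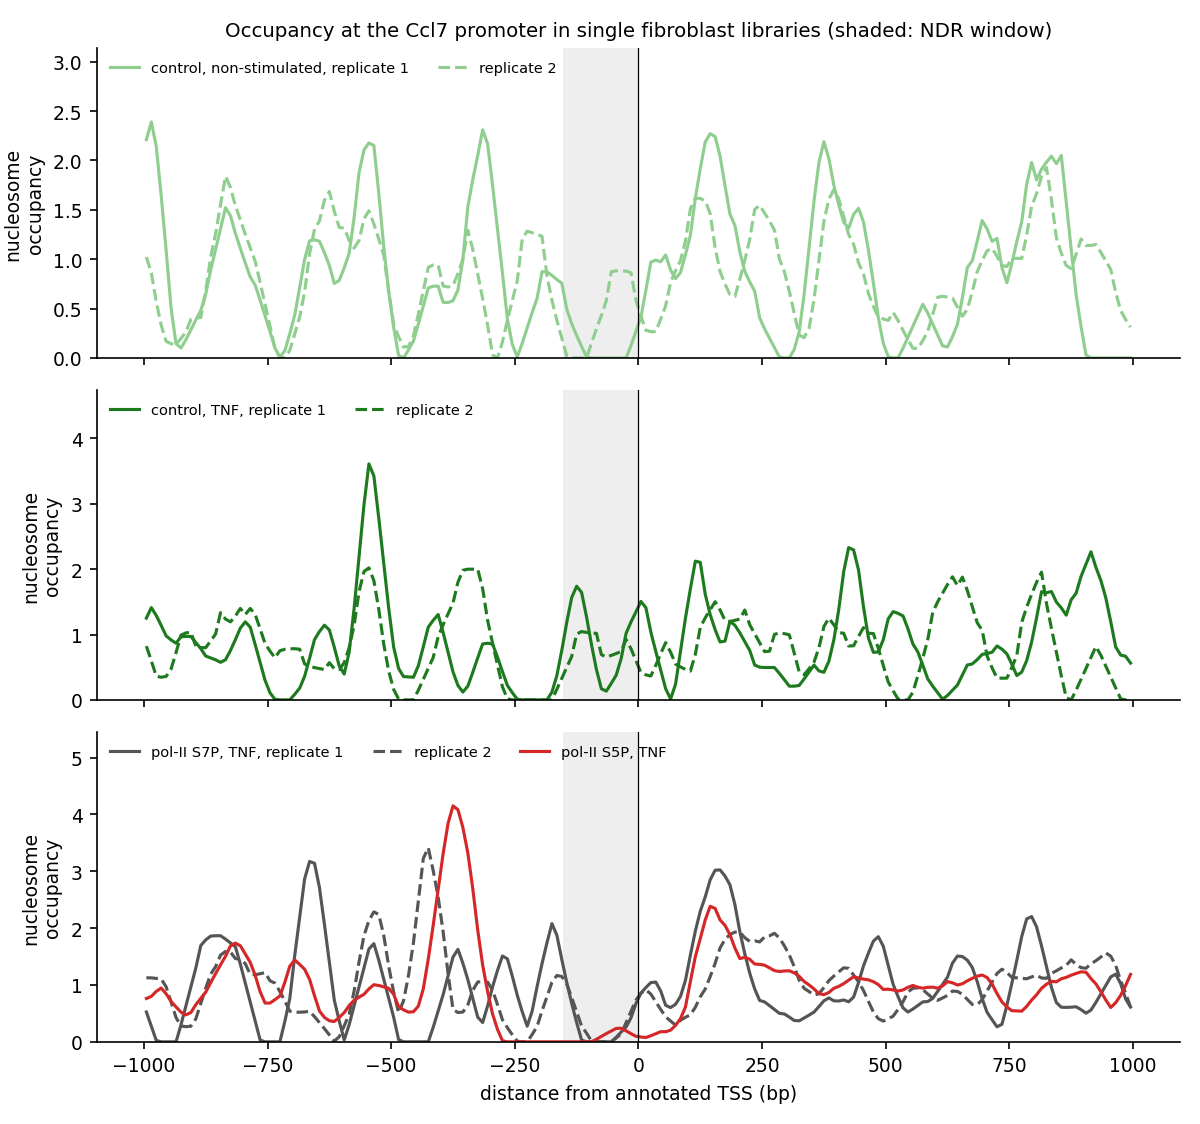
Nucleosome occupancy (y axis, the authors' signal relative to the surrounding 1 kb) at Ccl7 against distance from the TSS (x axis, bp) in non-stimulated control (top), TNF-α-treated control (middle) and pol-II libraries of TNF-α-treated fibroblasts (bottom), with the window from −150 to 0 bp shaded. The window holds little signal in the 3 pol-II libraries and in the first non-stimulated control library, and signal near the level of its surroundings in both TNF-α-treated H3K4me1 libraries.

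Ccl5, Ccl3 and Ccl4 encode inflammatory chemokines that attract T cells and macrophages. The Ccl5 promoter, which has TATAAA and the strict NF-κB-like motif within 100 bp of the TSS, was not depleted in any pooled set. The NDR ratio stood at 0.888 and 1.43 in DCs without and with LPS, and 0.534 and 1.13 in pooled fibroblasts without and with TNF-α. Values after stimulation were the higher ones in both cell-types, each a single pair of sets. In single control libraries the ratio was 0.449 and 1.35 without and 1.27 and 4.25 with TNF-α, and in BAF-knockdown libraries 1.62 and 1.62 without and 1.15 and 1.15 with TNF-α. The value of 4.25 comes from a library in which 61% of the Ccl5 bins were filled, against 79.5 to 100% in the other 7. In the pol-II libraries it was 0.853 and 1.38 (S7P) and 1.28 (S5P), so the window stayed occupied there.

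The patterning level of Ccl5 gave the only unadjusted p below 0.05 of a member in the 8 fits. It was 6.20 and −3.28 in non-stimulated control cells and −3.95 and −17.7 after TNF-α. In BAF-knockdown cells it was −4.00 and −5.94 without and 1.10 and 2.98 with TNF-α. Stimulated libraries were thus lower than non-stimulated ones in control cells and higher in knockdown cells, without overlap in either. Such opposite movement was seen for 2 of the 9 members (Ccl5 and Ccl7) and for 5.62% of covered promoters. The difference between the TNF-α responses was 19.3 (SE 7.5, 95% interval 0.915 to 37.7), with an unadjusted p = 0.0424 and an adjusted p = 0.86 (limma), so it did not pass the test. Without the second stimulated control library it was 12.4, with adjusted p = 0.839 (limma).

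**Figure D4:**
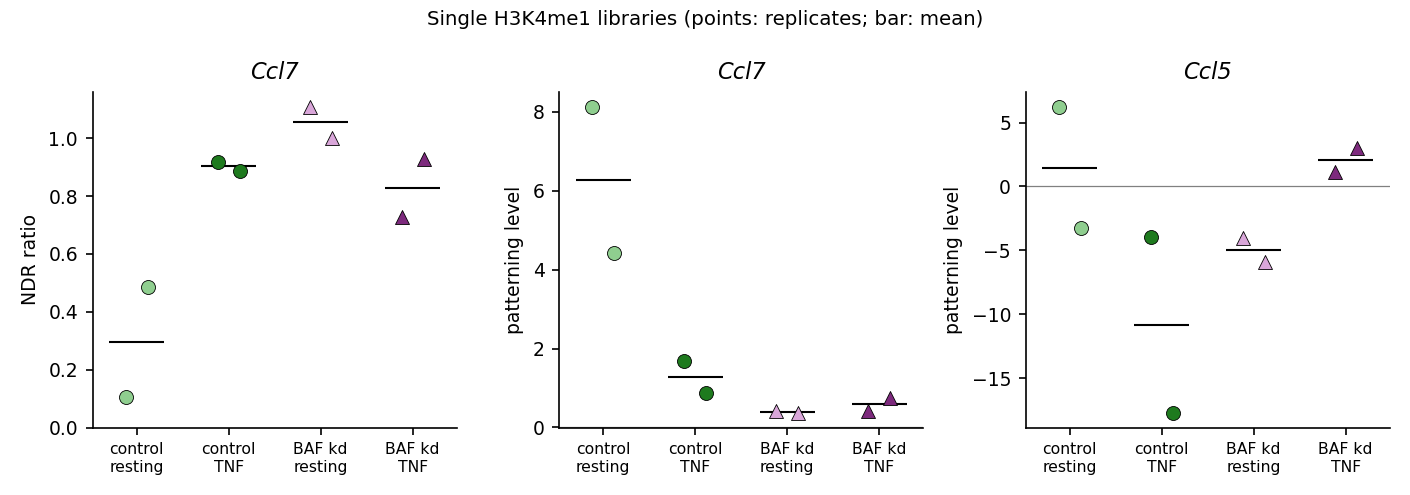
NDR ratio of Ccl7 (left) and patterning levels of Ccl7 (middle) and Ccl5 (right) in the single H3K4me1 libraries of control and BAF-knockdown (kd) fibroblasts, resting (non-stimulated) or treated with TNF-α. Points are the 2 replicates of a group and bars their mean. The 2 resting control libraries stand apart for Ccl7, and the stimulated libraries lie below the resting ones in control cells and above them in knockdown cells for Ccl5.

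Ccl3 and Ccl4, which start 13207 bp apart on opposite strands, were both listed at 0 in fibroblasts and ranked high in DCs. The NDR ratio of Ccl3 was 0.80 in non-stimulated DCs, 0.465 after LPS, 1.55 in non-stimulated fibroblasts and 0.784 after TNF-α. It was thus lower in DCs than in fibroblasts and lower after stimulation in both, at the lowest coverage score of the 9. The value after LPS was 0.537 with flanks on both sides, and that after TNF-α was 1.20 with a window from −200 to 50 bp. The 8 single H3K4me1 libraries did not show depletion, with a lowest value of 0.909, a median of 1.37 and a highest of 2.44. In the S7P libraries it was 0.0666 and 1.07, and in the S5P library 1.01, where the low value comes from a library with 43.5% of the Ccl3 bins filled. Ccl4 varied little in the pooled sets, with 1.05 and 0.843 in DCs without and with LPS and 0.878 and 0.872 in fibroblasts without and with TNF-α. Its single H3K4me1 libraries ran from 0.583 through a median of 0.869 to 1.46 and its pol-II libraries from 0.682 to 1.15. The window that holds the TATAAA of Ccl4 thus had no ratio below 0.5 in any set. Occupancy at the motif itself was not examined.

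Ccl9, a chemokine of mouse macrophages and other myeloid cells, had the highest coverage and a promoter without depletion in all 15 libraries. Its NDR ratio was 1.10 and 1.26 in DCs without and with LPS and 1.08 and 1.06 in pooled fibroblasts without and with TNF-α. The 8 single H3K4me1 libraries gave 0.618 to 1.45 with a median of 0.968, and the pol-II libraries 0.949 to 1.44. Its fibroblast profile was the one that changed least between pooled sets: with and without TNF-α they correlated with r = 0.833 over the 200 bins, against a median of 0.315 for covered promoters and 0.419 for the 9 members. Nucleosome peaks of both fibroblast sets stood at −75 bp and at 105 (non-stimulated) and 85 bp (TNF-α). The TGANTCA and strict NF-κB-like matches of Ccl9 begin just downstream of that upstream peak, 53 and 35 bp before the TSS.

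Ccl17 likewise had no ratio below 0.5 in any library. Its NDR ratio was 1.18 and 0.791 in DCs without and with LPS and 0.715 and 0.747 in pooled fibroblasts without and with TNF-α, with 0.536 to 0.975 in the 8 single H3K4me1 libraries (median 0.875) and 0.792 to 1.06 in the pol-II libraries. In DCs, where Ccl17 ranked above 99.6% of promoters in expression, it thus had no depleted window in either state. Ccl22, whose product binds the same receptor, differed. It had an NDR ratio of 0.372 and 0.256 in DCs without and with LPS and 1.09 and 0.265 in pooled fibroblasts without and with TNF-α. With a window from −200 to 50 bp these were 0.82, 0.416, 1.03 and 0.584, so that Ccl22 was then depleted only in DCs treated with LPS and neither difference from non-stimulated fibroblasts reached 2-fold. The 2 non-stimulated control libraries gave 1.09 and 1.15 and the 2 stimulated ones 0.481 and 0.657, lower than either. In BAF-knockdown cells it was 1.03 and 1.70 without and 1.56 and 0.625 with TNF-α, where the states overlap. Over both kinds of cell the TNF-α difference was −0.63 on the log2 scale (SE 0.41, 95% interval −1.64 to 0.38, adjusted p = 0.898, limma). The pol-II values of 0.108 and 1.35 (S7P) and 0.356 (S5P) did not repeat each other, and 42% of the Ccl22 bins were filled in the library with the lowest one.

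Ccl20, whose gene was listed at 0 in both cell-types before stimulation, was thinly covered in DCs, where 37.5% of its bins were filled without and 43.5% with LPS. No fragment lay in its window in non-stimulated DCs and none in its flank after LPS, so no DC difference can be given. In pooled fibroblasts its NDR ratio was 1.13 without and 0.328 with TNF-α. The single libraries went the other way, with 0.317 and 0.298 in non-stimulated and 0.572 and 0.728 in stimulated control cells, and with 0.195 and 0.601 in non-stimulated and 0.723 and 0.653 in stimulated knockdown cells. The stimulated libraries were higher than the non-stimulated ones in both kinds of cell, and the fitted difference was 0.88 on the log2 scale (SE 0.39, 95% interval −0.09 to 1.86, adjusted p = 0.843, limma). It was 0.56 without the first non-stimulated knockdown library, and −0.13 with a window from −200 to 50 bp. In the pol-II libraries the ratio was 1.17 and 0.464 (S7P) and 0.274 (S5P).

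Set against each other, the pooled sets of non-stimulated cells differed more than 2-fold in NDR ratio at Ccl2, Ccl22 and Ccl20, which were all lower in DCs, as were 19.9% of covered promoters, while none of the 9 was higher in DCs (25.1% of covered promoters). Of these, Ccl20 had only 37.5% of its bins filled in non-stimulated DCs. The difference of Ccl22 was below 2-fold with a window from −200 to 50 bp. With LPS none of the 8 CC chemokine promoters with a value fell more than 2-fold (24.3% of covered promoters), and Ccl2 went from 0 to 0.173 (17.1% of covered promoters were over 2-fold higher). With TNF-α the pooled ratios of Ccl2, Ccl22 and Ccl20 were more than 2-fold lower (27.2% of covered promoters) and that of Ccl5 more than 2-fold higher (18% of covered promoters). With a window from −200 to 50 bp the TNF-α differences of Ccl22 and Ccl5 were below 2-fold. Of these 4, the single control libraries differed in the same direction without overlap for Ccl22, in the opposite one for Ccl20, and overlapped for Ccl2 and Ccl5. The knockdown libraries differed in the same direction without overlap for Ccl2, in the opposite one for Ccl20 and Ccl5, and overlapped for Ccl22.

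Across the replicated libraries no promoter, and so no CC chemokine, passed an adjusted p of 0.05 in any of the 8 fits (0 of 13559 each, limma). At an unadjusted p below 0.05 the patterning fits held 5.73% of promoters for TNF-α, 5.91% for the knockdown, 5.65% for the difference between TNF-α responses and 9.09% for S7P against H3K4me1, and the NDR fits 6.31%, 5.68%, 6.03% and 9.02% in that order. Of the 9 members, Ccl5 alone reached it, in 1 of the 8 fits. The median difference in log2 NDR ratio of the 9 was −0.04 for TNF-α (−0.08 over all promoters), −0.04 for the knockdown (0.00), −0.36 for the difference between responses (−0.16) and −0.27 for S7P (0.18). For patterning these medians were −0.659 (0.232), 1.28 (0.0544), 3.86 (0.607) and −0.289 (0.249). The SD between replicates, pooled over the 4 H3K4me1 groups, was 0.24 (Ccl4) to 0.77 (Ccl5) on the log2 scale for the 9, against a median of 1.13 for covered promoters.

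Other genes of the system were taken from lists of names, and those given with values were picked after the values had been seen. Of 14 other CC chemokines 7 had a covered promoter, and 2 of these were depleted in non-stimulated DCs, 1 after LPS, 2 in non-stimulated and 1 in TNF-α-treated pooled fibroblasts. Of all covered promoters 40.1%, 42.8%, 41.7% and 45.1% were depleted in that order, and the counts of the lists were not tested against these shares. Ccl12 and Ccl8, further monocyte attractants, had ratios of 0.311 and 0.356 in non-stimulated and 1.13 and 0.583 in TNF-α-treated fibroblasts. CC receptors had 14 covered promoters, of which 1, 1, 1 and 3 were depleted in the same order, with Ccr1 at 0.0583 and 0.248 in DCs without and with LPS. The CXC chemokines had 11 covered promoters and 1, 3, 1 and 2 depleted ones. Among these Cxcl10, a T cell attractant, was depleted in all 4 sets, at 0.316, 0.00899, 0.374 and 0.00412. NF-κB pathway genes, with 19 covered promoters, had 6, 10, 9 and 12 depleted ones. No promoter of these lists passed the adjusted test in any fit.

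Likeness of profiles was sought over the 800 bins of the 4 pooled sets for the 3 members with the highest coverage. The most similar covered promoter was Rxrb for Ccl9 (r = 0.492), Klhl10 for Ccl5 (r = 0.389) and Armc1 for Ccl7 (r = 0.358), followed by Atg12 and Cfap77, Lrrc46 and Ift46, and AA467197 and Tmem127. Among themselves the 9 had a median r of 0.00777 over their pairs and a highest of 0.299 (Ccl9 and Ccl17). The correlations with other genes are the highest of a search over all covered promoters, so those among the 9 cannot be set against them.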

How the data were processed

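ChIP-MNase values of 15 libraries were used, grouped by their GEO titles. Per the study's methods, the authors aligned reads to mm9 with bowtie (the submitters' processing notes list Bowtie2 and bedtools), removed excess duplicates and counted fragments in 10 bp bins relative to the surrounding 1 kb. The deposited occupancies are thus a signal, not counts, in 200 bins from −1000 to 1000 bp of each TSS. An empty bin was read as 0. The deposited promoter annotation gives a coverage score and expression before stimulation (public RNA-seq, handled as a score). Its columns of stimulus-induced expression differences are the authors' own comparisons and were not used, so inducible promoters were not removed from the templates of active promoters (expression above 0.02 times the mean). Matrices carry no row names and were joined to the annotation by row order. RefSeq identifiers were paired with symbols for 24924 of 25881 promoters.

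Patterning followed the methods of the study. NDR ratios were tested as log2 values after adding 0.1 times the library mean to both parts, with limma 3.58.1 (R 4.3.3) on all 13559 promoters with a score above 100, Benjamini-Hochberg adjusted at 0.05, two-sided, with 1 mean per group over 8 H3K4me1 libraries or 10 with S7P. Fold changes of low promoters are understated on this scale. The fits were tested on simulated data. Replicates are named as separate samples, and p-values measure only the spread between them. Pooled sets have no replicates and no test. For S5P the study lists 2 replicates and 1 set without a replicate number was analysed here. Whether it holds 1 or both is not given in the sources used here, and it was treated as 1 library without a test. Depth is unknown, and precision was judged from the coverage score and the share of filled bins. Nucleosome peaks had a prominence of at least 20% of the profile's range. All 9 members are named whatever their values; similar genes are given for the 3 members of highest coverage, and a fitted difference is followed through the alternatives for the member with the smallest p in each fit. The members and lists were chosen with earlier results of these data known.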

Additional observations from a re-analysis of the deposited data

Results flagged for a closer look

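With TNF-α, 3 values moved one way in every control library and the other way in every BAF-knockdown library, with each group at 2 libraries. For the NDR ratio of Ccl7, the mean went from 0.296 to 0.903 in control cells and went from 1.05 to 0.827 in knockdown cells, a difference between the responses of −0.834. For the patterning level of Ccl7 it went from 6.27 to 1.27 in control cells and from 0.402 to 0.59 in knockdown cells, a difference of 5.18. For the patterning level of Ccl5 it went from 1.46 to −10.8 and from −4.97 to 2.04, a difference of 19.3. Such opposite movement was seen at 4.96% of covered promoters for the NDR ratio and at 5.62% for patterning. The test of the difference between responses did not pass for any of them (adjusted p = 0.849, 0.871 and 0.86, limma).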

How the results depend on the processing

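No fit called a promoter under most alternatives. Exceptions were the difference between TNF-α responses in NDR ratio with a window from −200 to 50 bp (1 promoter), and S7P against H3K4me1 in NDR ratio with a pseudocount of 0.02 times the library mean (96) and without the coverage filter (49). No CC chemokine was called in any of them, with 0.138 as the lowest adjusted p of any member in any fit and 0.343 as that of the 8 member values followed. Ccl20 did not enter the fits of promoters with a score above 200, and comparisons with replicate 2 alone or with the pooled stimulated set as comparator give no calls. Leaving out each library in turn gave 0 calls in all 68 fits, and 0 was also the count with control, knockdown, non-stimulated or stimulated cells alone. The labels do not say that a replicate number marks a shared batch, although file names share a tag of unstated meaning within each number. Over the 6 pairs of H3K4me1 groups, the differences between replicates 1 and 2 correlated with r = −0.00751 to 0.0211. With the number as a replicate block 0 promoters were called in every fit, and no call changed.

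Of the member values, 3 changed sign: Ccl7 patterning with TNF-α was 0.188 in knockdown cells alone, the Ccl7 NDR difference with the knockdown was −0.12 in stimulated cells alone, and the Ccl20 NDR difference with TNF-α was −0.13 with a window from −200 to 50 bp. In replicate 2 alone, whose file names all carry the same tag, of unstated meaning, the Ccl7 knockdown difference was 0.49 for the NDR and −2.08 for patterning (no test, since 1 library a group remains). Counts of members between pooled sets were 7 at 1.5-fold for DCs against fibroblasts (61.6% of all covered promoters), 2 with the wider window (27.1%), 2 with both flanks (41.2%) and 3 at 1.5-fold (58.2%) for LPS, and 2 with the wider window (32.2%) and 6 at 1.5-fold (60.3%) for TNF-α. Below 0.7 lay 2 members in non-stimulated fibroblasts (54.5%). Depleted members were 2 in place of 3 with the wider window in non-stimulated DCs (28.8%) and stimulated fibroblasts (34%), and with both flanks in stimulated DCs (42.9%). The cause was not tested. A larger share of bins is empty in single libraries than in pooled sets, which limits the precision of values at single promoters.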
